A study of Danio rerio with 12 samples.

Results

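The effect of p53 loss was followed across both BRAF states of whole zebrafish embryos at 80 hours post fertilization. The p53 mutant side held 6 arrays, 3 of p53 embryos (homozygous for the p53-M214K missense allele) and 3 of BRAF;p53 embryos (the same allele together with a homozygous tg(mitf-BRAFV600E) transgene). The other side held 6 arrays with intact p53, 3 of Tu wild type and 3 of BRAF embryos, which carry the transgene alone. All 12 of the 12 arrays of the series entered, and no array was chosen by a measured value. Each genotype came from an incross, and the number of embryos or clutches behind an array is not given. The p-values thus rest on the spread among these arrays, some of which may be technical. The p53 embryos of replicates 1 and 2 carry the source names 1a and 1b, so they may share a source. The mitf promoter drives the transgene in pigment cells and their precursors, so most of the RNA of a whole embryo comes from cells that do not use it. Neither line is described by its strain, and the p53 allele, the sequence linked to it and the line background cannot be told apart.

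The transcription factor p53 is kept low by the ubiquitin ligase Mdm2 and is stabilised by DNA damage and other stress. It then switches on genes that stop the cell cycle, repair DNA, restrain growth or start apoptosis. The M214K change lies in the DNA-binding domain, and the mutant fish are known for failing to undergo p53-dependent apoptosis and for developing tumours as adults. cdkn1a and sesn1 were not analysed here.

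Values are log2 expression, centred for most probe sets at their median over the 12 arrays, and for those 0 marks the median array. For no probe set does 0 mean absence, and levels cannot be compared between genes. For that reason the labelled tissue could not be checked by the level of its markers. The main difference is the mean of p53 minus Tu and of BRAF;p53 minus BRAF. It was tested in limma with 1 mean per genotype, and a probe set was called at a Benjamini-Hochberg adjusted p under 0.05. The 2 component differences use different arrays. In whole embryos, fewer cells of a type and less RNA per cell cannot be told apart, which holds for every result below.

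p53 mutant embryos differed from embryos with intact p53 at 461 of 15502 probe sets (2.97%), of which 189 were higher (1.22%) and 272 lower (1.75%) in the mutants. The change was at least 1 on the log2 scale at 85 of the 461. The 3 mutant and 3 intact arrays did not overlap in either BRAF state at 226 of the 461, against 3.05% of all probe sets, and the 6 mutant and 6 intact arrays did not overlap at 129, against 1.48%. Choosing probe sets by the call raises both counts. A fit with additive p53 and transgene terms, which counts any difference between the BRAF states as error, called 124 (0.8%), 48 higher and 76 lower, all of them among the 461. After quantile normalization 541 were called, 277 higher and 264 lower. With array medians centred 420 were called, 197 higher and 223 lower. The excess of lower calls was thus smaller with centred medians and absent after quantile normalization.

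The 2 BRAF states often gave the same direction at called probe sets but seldom both passed alone. p53 against Tu alone gave 284 calls (1.83%), and BRAF;p53 against BRAF gave 698 (4.5%). Of the 461 main calls, 402 had the same sign in both states, a share that the choice of calls by the mean of the 2 differences raises. Over all probe sets 48.3% had the same sign. In 26 of the 461 both states passed alone, and 23 of those had the same sign (9 higher, 14 lower). A further 243 passed only in BRAF carriers, 105 only without the transgene, and 87 in neither state alone. The difference between the states was itself past the threshold at 497 probe sets (3.21%) and at 127 of the 461 main calls. Counting all probe sets that passed in both states, called in the main effect or not, 37 of 60 had opposite signs. The plot of one difference against the other shows these patterns.

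**Figure D1:**
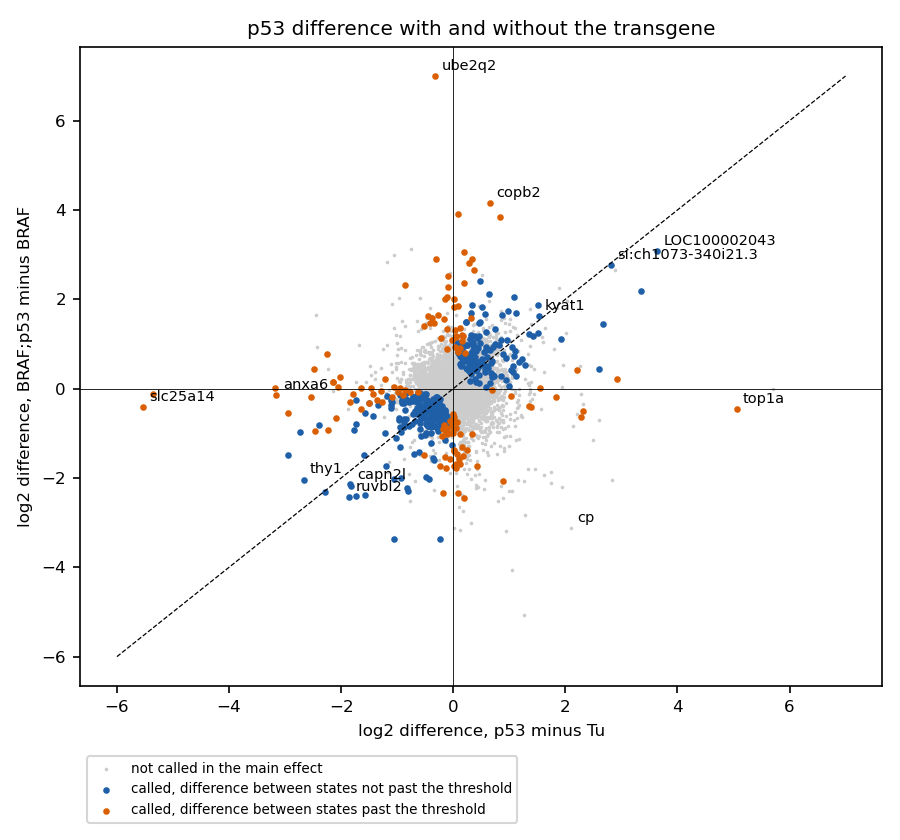
log2 difference of BRAF;p53 minus BRAF (vertical) against p53 minus Tu (horizontal) for 15502 probe sets, with the dashed line marking equal differences. Blue and orange points are the 461 called in the main effect, orange where the difference between the states also passed (127). Genes such as thy1, ruvbl2 and si:ch1073-340i21.3 lie near the line, ube2q2 and copb2 moved mainly in BRAF carriers, and slc25a14, top1a and anxa6 mainly without the transgene.

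Among known p53 target genes, rps27l and plk3 were lower in p53 mutants and none was higher. Of 38 listed targets 27 were measured, on 33 probe sets. Of these 2 probe sets were called lower and 0 higher, against 1.75% and 1.22% of all probe sets. The main difference was below 0 at 32 of the 33, with a median of -0.13, against 60.8% below 0 and a median of -0.04 over all probe sets. Without BRAF replicate 1 and p53 replicate 3, the arrays that correlated least with the others of their genotype, 24 of the 33 were below 0, the median was -0.08 and 2 were called. In that fit 53.1% of all probe sets were below 0, with a median of -0.01. The additive fit called 1. The list median by array was -0.07, -0.05 and -0.30 in p53 embryos and 0.07, 0.02 and -0.02 in Tu embryos. It was -0.09, -0.02 and -0.08 in BRAF;p53 embryos and 0.14, 0.03 and 0.03 in BRAF embryos. p53 replicate 3 had the lowest of these values and BRAF replicate 1 the highest.

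rps27l encodes a ribosomal protein S27-like factor and is a p53 target in mammals. Its values were -0.26, -0.05 and -0.16 in p53 embryos and 0.53, 0.42 and 0.05 in Tu embryos. In BRAF carriers they were -0.71, -0.61 and -0.60 in BRAF;p53 embryos and 0.46, 0.37 and 0.27 in BRAF embryos. All 6 mutant arrays lay below all 6 intact arrays. The main difference was -0.75 ± 0.09 (SE, adjusted p = 0.00122), and it stayed past the threshold in each of the 12 fits that left out 1 array. Its difference was -1.0 in BRAF carriers (adjusted p = 0.00119) and -0.49 without the transgene (adjusted p = 0.0756), and the states did not differ past the threshold (adjusted p = 0.14).

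plk3, a stress-responsive kinase of the polo family, was lower in BRAF carriers. Its values were -0.42, -0.27 and -0.49 in BRAF;p53 embryos and 0.38, 0.28 and 0.35 in BRAF embryos, with no overlap. They were -0.10, 0.00 and 0.03 in p53 embryos and 0.22, -0.13 and 0.00 in Tu embryos, which overlapped. It differed by -0.39 ± 0.07 over both states (adjusted p = 0.0171), and the difference between the states passed (-0.68, adjusted p = 0.0304). Leaving out BRAF;p53 replicate 1 gave an adjusted p of 0.0508.

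The classical feedback and apoptosis targets gave differences that did not pass, though that of gadd45aa was as far from 0 as that of plk3. mdm2, the ubiquitin ligase that p53 itself induces, differed by -0.03 ± 0.12 (adjusted p = 0.911). ccng1, a cyclin G that takes part in p53 feedback, differed by -0.18 ± 0.07 (adjusted p = 0.192). The BH3-only killers bbc3 (Puma) and pmaip1 (Noxa, 1 of its 2 probe sets) differed by -0.01 and -0.08. The pore former baxa differed by -0.23 (adjusted p = 0.246). gadd45aa, a growth arrest and DNA damage gene, differed by -0.42 (adjusted p = 0.163), casp8 by -0.25, the death receptor fas by -0.30 on one probe set and 0.03 on another, and tp53inp1 by -0.05. At an unadjusted p under 0.05, 9 of the 33 target probe sets passed. The share of all probe sets at that unadjusted p was not counted. Such counts, here and below, thus do not set a list apart from the other probe sets. ddit4, an mTORC1 inhibitor and a p53 target in mammals, was chosen after its values were seen. It was -0.32, -0.24 and -0.31 in p53 embryos and 1.16, 0.50 and 0.74 in Tu embryos, against -0.44, -0.37 and -0.23 in BRAF;p53 embryos and -0.03, -0.22 and -0.20 in BRAF embryos. Its main difference was -0.64 ± 0.10 (adjusted p = 0.00861), larger without the transgene, with the difference between the states past the threshold (adjusted p = 0.0411).

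p53 regulators and family members gave no call in limma. The list includes mdm4, the checkpoint kinases, tp63, tp73, the acetyltransferases and the ribosomal proteins that bind Mdm2. Of 31 listed genes 20 were measured on 28 probe sets, with 2 at an unadjusted p under 0.05 and a median of -0.03. usp7, the deubiquitinase that stabilises Mdm2 and p53, named after its values were seen, was 1.16 higher in BRAF;p53 than in BRAF embryos (adjusted p = 0.0112) on one probe set, whose main difference was 0.50 (adjusted p = 0.106).

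Within the apoptosis machinery casp2 alone was called. The list had 29 measured genes on 39 probe sets and a median of -0.05, while 2.97% of all probe sets were called. casp2, an initiator caspase activated through the PIDDosome, was -0.24, -0.45 and -1.24 in p53 embryos and 0.13, 0.26 and 0.04 in Tu embryos. It was -0.04, -0.49 and -0.06 in BRAF;p53 embryos and 0.76, 0.40 and 0.74 in BRAF embryos. All mutant arrays lay below all intact arrays, and the main difference was -0.81 ± 0.16 (adjusted p = 0.0242). The call was lost without BRAF;p53 replicate 2 or 3 or any Tu array (highest adjusted p 0.0675). api5, an inhibitor of apoptosis named after its values were seen, differed by -1.06 on one probe set (adjusted p = 0.00412) and differed by -0.07 on the other.

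The DNA repair and cell cycle lists held no call in limma. Of 26 measured repair genes on 28 probe sets, 6 probe sets passed at an unadjusted p under 0.05, and the median was -0.11. Of 38 cell cycle genes on 53 probe sets, 12 passed unadjusted, and the median was -0.04. The additive fit called 0 in both lists. Without BRAF replicate 1 and p53 replicate 3, 2 repair probe sets were called higher and 1 cell cycle probe set lower, and quantile normalization gave 1 cell cycle call higher and 2 lower. rev3l, the catalytic subunit of a translesion DNA polymerase, is outside the list and was named after its values were seen. It was 0.09, 0.25 and 0.67 in p53 embryos and -0.39, -0.48 and -0.25 in Tu embryos. It was 0.07, 0.16 and 0.23 in BRAF;p53 embryos and -0.32, -0.07 and -0.10 in BRAF embryos, so all mutant arrays lay above all intact ones. It rose by 0.51 ± 0.10 (adjusted p = 0.0219), a call lost without BRAF;p53 replicate 2 or 3 or Tu replicate 1 (highest adjusted p 0.0602). Ribosome biogenesis had 1 call among 20 genes on 28 probe sets (2.97% of all probe sets were called). That was pes (pescadillo), needed for the large ribosomal subunit, with values of -0.39, -0.10 and -0.12 in p53 embryos and 0.47, 0.10 and 0.40 in Tu embryos. In BRAF carriers pes was -0.43, -0.78 and -0.44 in BRAF;p53 embryos and 0.85, 0.84 and 1.11 in BRAF embryos. The main difference was -1.01 ± 0.10 (adjusted p = 0.000408), and it was larger in BRAF carriers (-1.49 against -0.53, difference -0.96, adjusted p = 0.0271).

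**Figure D2:**
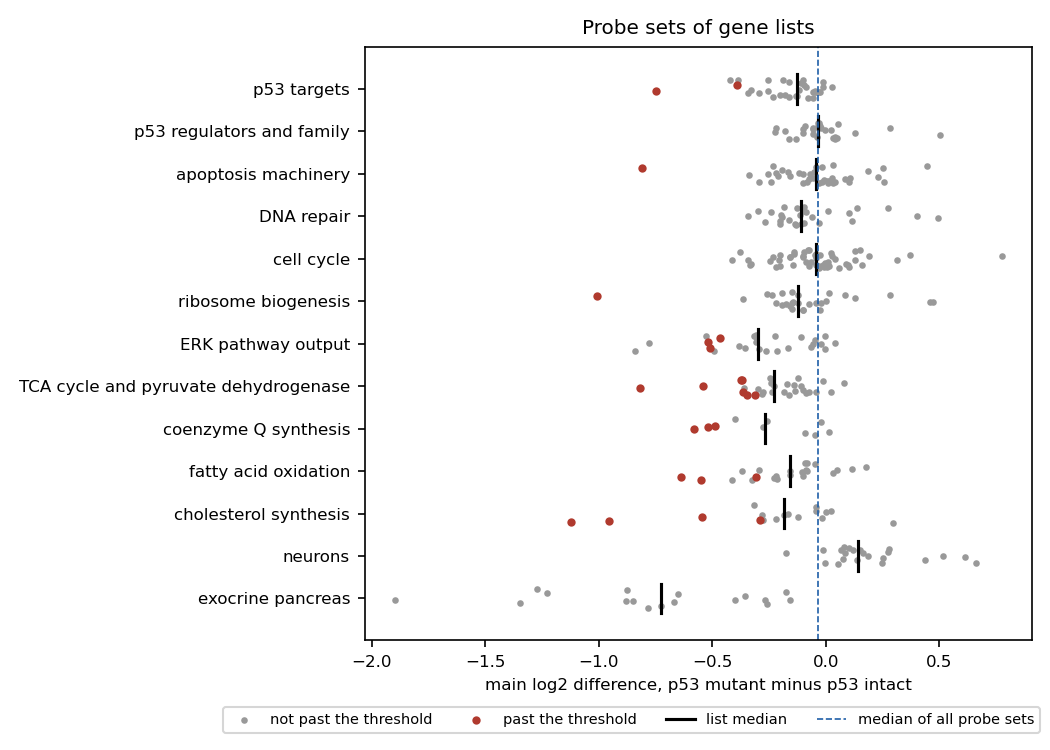
Main log2 difference, p53 mutant minus p53 intact, for each probe set of 13 gene lists, with red points past the threshold, black ticks at list medians and the dashed line at the median of all probe sets (-0.04). p53 targets lie mostly below 0 with 2 called, pancreas probe sets are all below 0 with none called, and the mitochondrial and cholesterol lists were written after their leading genes were seen.

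The 12 genes with the largest falls were chosen among 111 probe sets that were called, had 1 symbol and did not overlap in either state. Over all probe sets, 1.84% were lower without overlap in each state. Of the 12 genes 7 passed in both states, 5 did not overlap across all 6 mutant and 6 intact arrays (0.961% of all probe sets), and 10 stayed called in each fit that left out 1 array. The choice of genes by call, size and lack of overlap raises these counts. thy1, a GPI-anchored surface glycoprotein of neurons and lymphocytes, was -2.24, -2.43 and -2.11 in p53 embryos and 0.21, 0.32 and 0.69 in Tu embryos. It was -0.25, -2.44 and -0.72 in BRAF;p53 embryos and 1.13, 0.66 and 0.91 in BRAF embryos. Over both states the difference was -2.35 ± 0.30 (adjusted p = 0.00234), at -2.67 without the transgene and -2.04 with it. The BRAF;p53 arrays spread widely, yet all were below the BRAF arrays.

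ruvbl2 encodes an AAA+ ATPase of chromatin remodelling and RNP assembly complexes. It was -1.35, -2.37 and -1.47 in p53 embryos and 0.44, 0.14 and -0.20 in Tu embryos. It was 0.39, -1.22 and -0.16 in BRAF;p53 embryos and 2.20, 2.08 and 2.00 in BRAF embryos. Both states passed (-1.86, adjusted p = 0.0298, and -2.42, adjusted p = 0.00457), and the main difference was -2.14 ± 0.26.

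tsc1a encodes hamartin, part of the complex that restrains mTORC1. It was -1.17, -1.54 and -0.74 in p53 embryos and 0.49, 0.20 and 0.60 in Tu embryos. It was -0.24, -0.99 and -0.52 in BRAF;p53 embryos and 1.00, 0.89 and 0.84 in BRAF embryos. All mutant arrays were below all intact arrays, and the differences in the 2 states were -1.58 and -1.49 (main -1.54 ± 0.15, adjusted p = 0.000408). capn2l, a calpain protease, was -0.76, -1.46 and 0.05 in p53 embryos and 1.32, 1.27 and 0.72 in Tu embryos, and -1.64, -1.66 and -1.52 in BRAF;p53 embryos and 0.73, -0.05 and 1.00 in BRAF embryos. It differed by -2.0 ± 0.25 (adjusted p = 0.00181), but its other 2 probe sets differed by 0.31 and 0.35.

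rtkn2 and bphl fell in both states and more without the transgene. rtkn2, of the rhotekin family, was -1.88, -1.84 and -2.17 in p53 embryos and 0.40, 0.32 and 0.10 in Tu embryos. It was -0.11, -0.73 and -0.32 in BRAF;p53 embryos and 0.58, 0.71 and 0.31 in BRAF embryos. Its component differences were -2.24 and -0.92, and their difference passed (adjusted p = 0.0125). bphl, a serine hydrolase, differed by -2.47 without the transgene and -0.96 in BRAF carriers, again with a difference past the threshold (adjusted p = 0.0121). zgc:112271 differed by -2.94 without the transgene and -1.49 in BRAF carriers, with mutant arrays from -0.52 to -0.11 and intact arrays from 0.11 to 3.10.

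The vitamin genes cyp24a1 and ttpa varied more between arrays. cyp24a1, the hydroxylase that inactivates vitamin D, was -0.68, -0.75 and -3.22 in p53 embryos and 1.09, -0.22 and 1.34 in Tu embryos. It was -1.42, -0.81 and 0.19 in BRAF;p53 embryos and 1.03, 2.01 and 1.85 in BRAF embryos. The main difference was -2.30 ± 0.48 (adjusted p = 0.0274), its other probe set was called too (-1.99), and neither state passed alone. The call was lost without BRAF replicate 2, BRAF;p53 replicate 1 or 2, or Tu replicate 1 or 3 (highest adjusted p 0.0755). ttpa, which carries vitamin E out of liver cells, differed by -2.07 ± 0.37 (adjusted p = 0.0153), with Tu replicate 2 and BRAF;p53 replicate 1 nearest to the opposite groups at -0.15 and 0.14. tln2a, a talin that couples integrins to actin, was -3.30, -3.53 and -1.01 in p53 embryos and 0.05, 0.38 and -0.05 in Tu embryos. Its main difference was -1.85 ± 0.38 (adjusted p = 0.0262), which stayed past the threshold in 4 of the 12 fits that left out 1 array, those without BRAF replicate 1 or 3, BRAF;p53 replicate 2 or p53 replicate 3 (highest adjusted p of the others 0.0721).

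**Figure D3:**
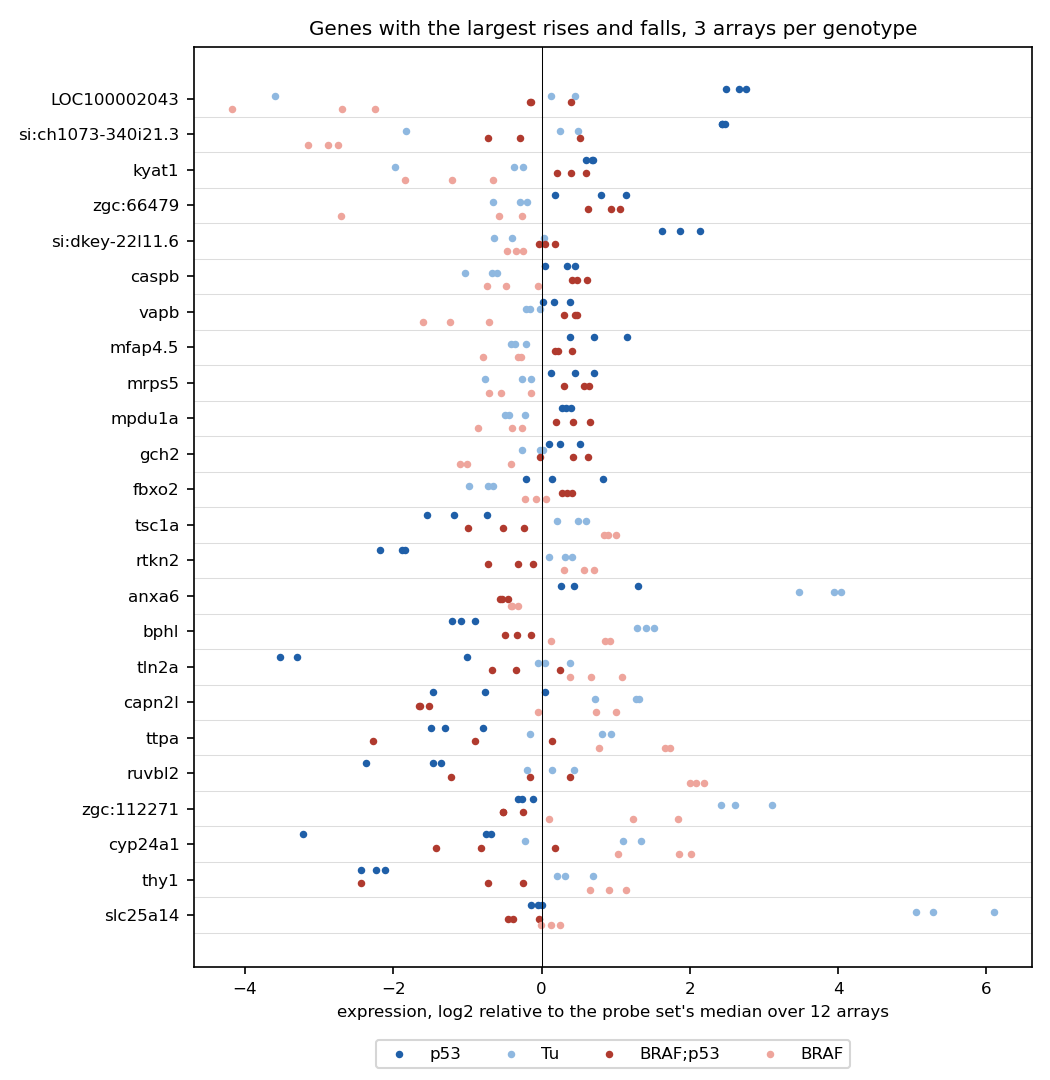
Values of each array, log2 relative to the probe set's median over 12 arrays, for the 12 genes with the largest rises (top) and the 12 with the largest falls, 3 points per genotype. Dark points are p53 mutant and pale points p53 intact, blue without and red with the transgene. Within each colour dark points lie right of pale ones at the top and left of them at the bottom, while slc25a14 and anxa6 stand apart mainly through Tu.

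The 12 genes with the largest rises were chosen in the same way from 39 probe sets. Over all probe sets, 1.21% were higher without overlap in each state. Of the 12 genes 3 passed in both states, 7 did not overlap across all mutant and intact arrays (0.523% of all probe sets), and 9 stayed called in each fit that left out 1 array. The choice of genes raises these counts too. The largest rises were in LOC100002043 (3.36 ± 0.61, adjusted p = 0.0162) and si:ch1073-340i21.3 (2.79 ± 0.36, adjusted p = 0.00234). si:ch1073-340i21.3 was 2.44, 2.44 and 2.48 in p53 embryos and 0.49, 0.25 and -1.82 in Tu embryos. It was -0.73, 0.51 and -0.30 in BRAF;p53 embryos and -2.75, -2.88 and -3.15 in BRAF embryos. The mutant rise was 2.81 without and 2.76 with the transgene.

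caspb, an inflammatory caspase of zebrafish, rose in both states. Its values were 0.05, 0.34 and 0.45 in p53 embryos and -0.60, -0.67 and -1.03 in Tu embryos. They were 0.41, 0.62 and 0.47 in BRAF;p53 embryos and -0.73, -0.48 and -0.05 in BRAF embryos. Every mutant array was above every intact one. It rose by 0.99 ± 0.13 (adjusted p = 0.00234), at 1.05 without and 0.92 with the transgene, and a second caspb probe set differed by 0.30 without passing.

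kyat1, a kynurenine aminotransferase of tryptophan breakdown, was 0.61, 0.69 and 0.68 in p53 embryos and -1.98, -0.24 and -0.37 in Tu embryos. It was 0.21, 0.60 and 0.39 in BRAF;p53 embryos and -1.84, -1.21 and -0.65 in BRAF embryos. It rose by 1.58 ± 0.29 (adjusted p = 0.0156), and a second probe set differed by -0.38. mpdu1a, needed to use dolichol-linked mannose in protein glycosylation, passed in both states (0.72, adjusted p = 0.0495, and 0.93, adjusted p = 0.00855). Its mutant arrays ran from 0.19 to 0.66 and its intact arrays from -0.86 to -0.22. mfap4.5, of the microfibril-associated glycoprotein family, rose by 0.90 ± 0.13 (adjusted p = 0.00546).

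vapb and si:dkey-22l11.6 rose unequally. vapb, an endoplasmic reticulum tether, rose by 1.59 in BRAF carriers (adjusted p = 0.00103) and differed by 0.32 without the transgene (adjusted p = 0.485), with a difference past the threshold (adjusted p = 0.0267). si:dkey-22l11.6 rose by 2.21 without the transgene and differed by 0.42 with it (difference -1.79, adjusted p = 0.00234). mrps5, of the small mitochondrial ribosomal subunit, rose by 0.89 ± 0.15 (adjusted p = 0.00937) on one probe set. Its other 2 probe sets differed by -0.36 and -0.16, and 1 of them was called lower. zgc:66479 rose by 1.57 ± 0.36 (adjusted p = 0.0421) and stayed called in 4 of 12 fits, those without a BRAF array or p53 replicate 1 (highest adjusted p of the others 0.103). fbxo2, an F-box protein for glycoproteins, rose by 0.73 ± 0.15 (adjusted p = 0.0262), a call lost without BRAF replicate 2, any BRAF;p53 array, or Tu replicate 1 or 3 (highest adjusted p 0.0725).

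In several genes 1 of the 4 genotypes stood apart, and the p53 difference passed in a single BRAF state. ube2q2, a ubiquitin-conjugating enzyme, was 0.85, 0.68 and 1.23 in BRAF;p53 embryos and -5.51, -6.36 and -6.36 in BRAF embryos. It was -0.26, -0.89 and 0.52 in p53 embryos and 0.12, -0.13 and 0.35 in Tu embryos. BRAF embryos alone were low, the p53 difference was 7.0 in BRAF carriers and -0.32 without the transgene, and the difference between the states was 7.32 ± 0.47 (adjusted p = 1.57e-05). copb2, of the COPI coat, and lgals3b, a galectin, were low in BRAF embryos alone as well. copb2 was 0.48, 0.57 and 0.54 in BRAF;p53 embryos and -2.96, -3.71 and -4.17 in BRAF embryos, and its other 2 probe sets differed in the main effect by 0.17 and 0.22. lgals3b was 0.13, 0.08 and 0.06 in BRAF;p53 embryos and -2.21, -3.42 and -2.84 in BRAF embryos.

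In slc25a14, anxa6 and top1a the Tu arrays stood apart. slc25a14, a mitochondrial carrier, was -0.05, 0.01 and -0.14 in p53 embryos and 5.05, 5.29 and 6.10 in Tu embryos. It was -0.39, -0.45 and -0.04 in BRAF;p53 embryos and 0.25, -0.01 and 0.12 in BRAF embryos. A second probe set gave Tu values of 4.79, 5.21 and 5.74, and the third differed by -0.21 in the main effect. anxa6, a calcium-dependent membrane-binding annexin, was 0.26, 0.44 and 1.30 in p53 embryos and 3.48, 3.95 and 4.04 in Tu embryos, and differed by -0.14 in BRAF carriers (adjusted p = 0.755). top1a, DNA topoisomerase I, was 0.06, 0.34 and 1.09 in p53 embryos and -4.23, -4.52 and -4.93 in Tu embryos. It was 0.04, -1.33 and -0.04 in BRAF;p53 embryos and -0.36, 0.16 and 0.25 in BRAF embryos. The 5 other top1a probe sets differed in the main effect by between -0.19 and 0.82, and 1 was called.

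cp, which encodes the copper-carrying liver ferroxidase ceruloplasmin, moved in opposite directions. It was 1.15, 0.58 and 1.13 in p53 embryos and -1.26, -1.20 and -0.98 in Tu embryos. It was -1.33, -1.90 and -1.64 in BRAF;p53 embryos and 1.72, 1.33 and 1.47 in BRAF embryos. The component differences were 2.10 (adjusted p = 0.000157) and -3.13 (adjusted p = 8.03e-06), and the main difference of -0.51 did not pass (adjusted p = 0.0649). Of the 3 main calls with opposite signs past the threshold, 2 had a symbol. They were pbldp (2.31 and -0.50) and zbtb16a (-2.25 and 0.77), each given first without and then with the transgene and chosen after their values were seen.

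**Figure D4:**
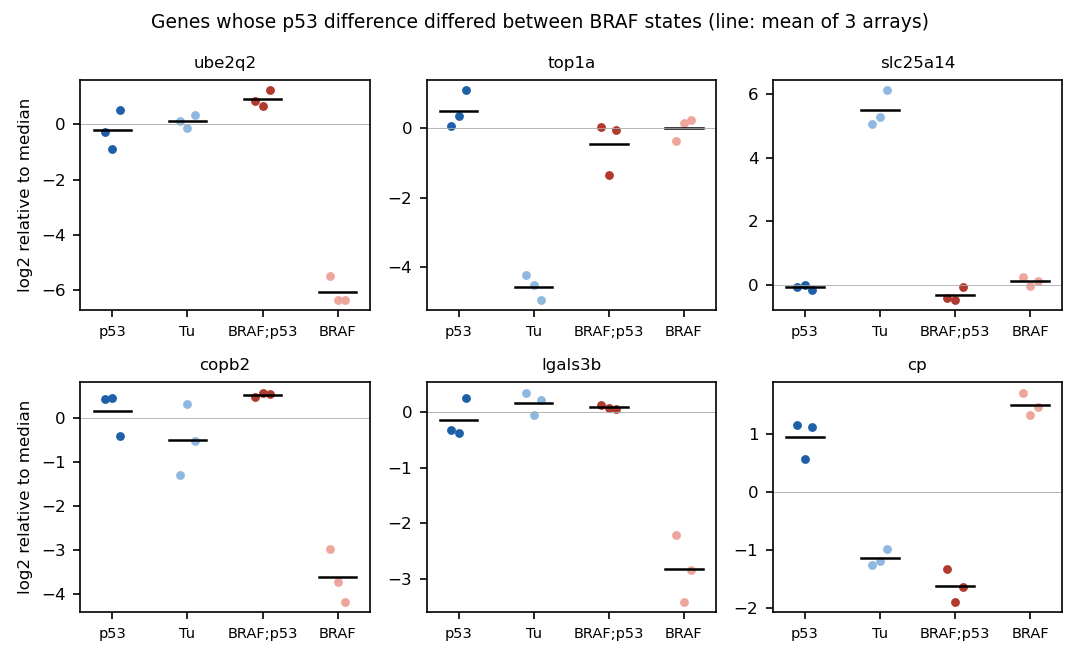
log2 value relative to the probe set's median for 3 arrays (points) and their mean (line) in p53, Tu, BRAF;p53 and BRAF embryos, for 6 genes whose p53 difference differed between the BRAF states. ube2q2, copb2 and lgals3b were low in BRAF embryos alone, top1a was low and slc25a14 high in Tu embryos alone, and cp was high in p53 and BRAF embryos.

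Among transcripts that report ERK signalling, etv5a, etv5b and spred1 were lower in p53 mutants and none was higher. The list holds ETS factors and feedback inhibitors that the ERK cascade downstream of BRAF induces. It had 15 measured genes on 26 probe sets, 25 of them below 0 (60.8% of all probe sets) with a median of -0.30, and 3 were called lower (1.75% of all probe sets) and 0 higher. The additive fit called 1. Without BRAF replicate 1 and p53 replicate 3 the median was -0.11, 25 of the 26 were below 0 (53.1% of all probe sets) and 2 were called. The list median of p53 replicate 3 was -0.62, against 0.01 and 0.03 in the other 2 p53 arrays. etv5a, an ETS factor, was -0.56, -0.71 and -0.66 in p53 embryos and 0.01, 0.08 and -0.16 in Tu embryos, and -0.01, 0.11 and -0.17 in BRAF;p53 embryos and 0.66, 0.25 and 0.22 in BRAF embryos. Its main difference was -0.51 ± 0.09 (adjusted p = 0.0153). etv5b differed by -0.46 (adjusted p = 0.0413), but the call held in 4 of 12 fits, those without BRAF replicate 3 or a p53 array (highest adjusted p of the others 0.11). spred1, an inhibitor of the Ras to Raf step, differed by -0.52 (adjusted p = 0.0478), a call that held in 1 of 12 fits, that without p53 replicate 1 (highest adjusted p of the others 0.121). spry4, another feedback inhibitor, differed by 0.00 in the main effect (adjusted p = 0.989), with arrays from -0.46 to -0.29 in p53 embryos and from -0.35 to -0.27 in Tu embryos.

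Stress, clock, nucleotide and immune lists had 2 of 39, 1 of 32, 1 of 18 and 0 of 14 probe sets called. Over all probe sets 2.97% were called, and counts this small do not set these lists apart from that share. Heat shock and stress genes had 2 lower calls among 31 genes on 39 probe sets. These were xbp1, a factor of the unfolded protein response (-0.41 ± 0.08, adjusted p = 0.019), and the peroxidase gpx1a (-0.32, adjusted p = 0.049), whose call held in 2 of 12 fits, those without BRAF replicate 2 or p53 replicate 1 (highest adjusted p of the others 0.117). cry5, a cryptochrome and photolyase family gene, fell in both states and was the 1 call among 24 clock and glucocorticoid genes on 32 probe sets. It was -0.93, -0.63 and -1.10 in p53 embryos and 0.19, 0.41 and 0.39 in Tu embryos. It was -0.22, -0.56 and -0.26 in BRAF;p53 embryos and 0.47, 0.76 and 0.71 in BRAF embryos. The groups did not overlap, and the main difference was -1.11 ± 0.10 (adjusted p = 0.000208), against -0.36 on its other probe set. paics, of purine synthesis, was higher by 0.72 ± 0.13 (adjusted p = 0.0154), at 1.25, 0.90 and 1.55 in p53 embryos and 0.23, 0.35 and -0.08 in Tu embryos, and was the 1 call among 16 nucleotide synthesis genes. No MHC class I or immunoproteasome gene was called in limma among 13, with 2 of 14 probe sets at an unadjusted p under 0.05.

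Genes of energy metabolism, most of them mitochondrial, were among the lower calls. These lists were written after leading members had been seen, so their counts are descriptions. The list of TCA cycle and pyruvate dehydrogenase genes also held the cytosolic mdh1ab and the lipoic acid gene lias, which are among its falls. Of its 24 measured genes 6 fell, on 7 of 29 probe sets, against 1.75% of all probe sets called lower. None rose, and 27 of the 29 probe sets were below 0 with a median of -0.23. mdh1ab, cytosolic malate dehydrogenase, was -0.15, -0.24 and -0.52 in p53 embryos and 0.45, 0.14 and 0.25 in Tu embryos. It was -0.37, -1.02 and -0.28 in BRAF;p53 embryos and 0.42, 0.58 and 0.50 in BRAF embryos. All mutant arrays lay below all intact ones (main -0.82 ± 0.13, adjusted p = 0.00736). sucla2, a subunit of succinyl-CoA synthetase, fell on both probe sets (-0.54 and -0.37), and lias, which makes lipoic acid for the dehydrogenases, differed by -0.36. dlat (-0.37), idh3a (-0.35) and suclg2 (-0.31) also passed, but the other idh3a probe set differed by -0.04 (adjusted p = 0.712), and dlat and idh3a held in 2 of 12 fits that left out 1 array and suclg2 in 0 (highest adjusted p 0.107, 0.106 and 0.125).

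The coenzyme Q, mitochondrial gene expression and fatty acid oxidation lists held falls and no rise, which rests on the choice of members, since mrps5, called higher above, is in none of them. Over all probe sets 1.75% were called lower. Of 8 coenzyme Q genes 3 fell, on 3 of 10 probe sets. coq8aa (-0.49, adjusted p = 0.00796) and coq9 (-0.52, adjusted p = 0.00861) stayed past the threshold in each fit that left out 1 array, while coq7 (-0.58) did so in 2 (highest adjusted p 0.109). For mitochondrial gene expression, import and proteases 6 of 29 probe sets fell, from 6 of the 23 genes. These included cluha, which binds mRNAs of mitochondrial proteins (-0.81 ± 0.15, adjusted p = 0.0165), tfb2m, a mitochondrial transcription factor (-0.76 on 1 of 3 probe sets), and timm8b, an import chaperone (-0.54, adjusted p = 0.00486). The other 3 were less stable, with afg3l2 (-0.39) held in 6 of the 12 fits and mtg2 (-0.43) and pitrm1 (-0.38) in 1 each (highest adjusted p 0.062, 0.104 and 0.119). Of 20 fatty acid oxidation genes 3 fell, on 3 of 23 probe sets. They were cpt1b (-0.64), crata (-0.55) and acaa2 (-0.31), which held in 2, 2 and 0 of the 12 fits. Without BRAF replicate 1 and p53 replicate 3, the called probe sets numbered 5 in the TCA list, 3 in the coenzyme Q list, 4 in the expression and import list and 2 in the oxidation list. The additive fit called 3, 2, 4 and 0 in the same order of lists.

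In cholesterol synthesis, dhcr7, msmo1, nsdhl and mvk were lower in the main effect. Of the 10 measured cholesterol synthesis genes, a list likewise written after members were seen, 4 fell and 0 rose. The falls lay on 4 of 17 probe sets, against 1.75% of all probe sets called lower. Without BRAF replicate 1 and p53 replicate 3, 2 probe sets were called, and the additive fit called 1. dhcr7, the last step to cholesterol, was -0.80, -1.25 and -1.58 in p53 embryos and 0.12, -0.93 and 0.01 in Tu embryos. It was -0.27, -0.01 and 0.06 in BRAF;p53 embryos and 0.85, 1.53 and 1.31 in BRAF embryos, so the arrays overlapped without the transgene and not with it (main -1.12 ± 0.20, adjusted p = 0.0153). nsdhl and mvk were lower in BRAF carriers (-1.0 and -0.57) and near 0 without the transgene (-0.09 and 0.00), with the difference past the threshold in both. msmo1 differed by -0.95 and held in 4 of 12 fits, and mvk held in 1. fads2, a fatty acid desaturase named after its values were seen, was -0.65, -0.33 and -0.55 in p53 embryos and 1.1, 0.06 and 0.90 in Tu embryos. It was -0.93, -0.27 and -0.06 in BRAF;p53 embryos and 1.33, 1.13 and 1.48 in BRAF embryos. All mutant arrays lay below all intact arrays (main -1.47 ± 0.19, adjusted p = 0.00256).

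Pigment and neural crest genes showed a rise of crestin and opposite moves of 2 xanthophore genes. crestin, a neural crest RNA of zebrafish, was -0.04, -0.40 and 0.31 in p53 embryos and -0.75, -0.42 and -0.52 in Tu embryos. It was 0.85, 0.62 and 0.51 in BRAF;p53 embryos and 0.08, -0.02 and 0.02 in BRAF embryos. Its rise was 0.57 ± 0.12 (adjusted p = 0.0254), 1 call among 13 neural crest genes on 19 probe sets (2.97% of all probe sets were called). The crestin call was lost without BRAF replicate 2, BRAF;p53 replicate 1 or 2, or Tu replicate 1 or 3 (highest adjusted p 0.0706). mitfa, the pigment cell master factor, differed by 0.00 (adjusted p = 0.997), and 0 of 6 melanophore probe sets were called in limma, with 1 at an unadjusted p under 0.05. gch2, the GTP cyclohydrolase of pteridine pigment synthesis, was higher by 0.78 ± 0.15 (adjusted p = 0.0181), at 0.43, 0.63 and -0.02 in BRAF;p53 embryos and -0.41, -1.01 and -1.10 in BRAF embryos. Its call was lost without BRAF;p53 replicate 1 or Tu replicate 1 (highest adjusted p 0.0511). bco1, a carotenoid oxygenase, was lower (-1.08 ± 0.19, adjusted p = 0.0127). No iridophore marker was measured.

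Among other cell types, 3 of 24 liver, 1 of 28 cartilage, 1 of 6 lens and 1 of 14 intestine probe sets were called. Over all probe sets 2.97% were called, and counts this small do not set these lists apart from that share. In liver c9, a complement component, was called higher on 3 of 3 probe sets (0.44 to 0.46), the 1 gene called among 20. In cartilage hapln1a rose on 1 of 6 probe sets (0.51 ± 0.08, adjusted p = 0.00521), with values of 1.17, 1.12 and 0.96 in BRAF;p53 embryos and 0.30, 0.20 and 0.01 in BRAF embryos. In lens cryaa, an alpha crystallin, was 1.40 higher in BRAF;p53 than in BRAF embryos and differed by -0.52 between p53 and Tu embryos (main 0.44, adjusted p = 0.0242, lost without BRAF;p53 replicate 1 or 2, p53 replicate 1 or Tu replicate 3, highest adjusted p 0.0694). In intestine agr2, a disulfide isomerase of secretory cells, was lower (-0.35, adjusted p = 0.0416), a call that held in 3 of 12 fits, those without BRAF replicate 2, p53 replicate 3 or Tu replicate 2 (highest adjusted p of the others 0.108). Erythrocyte, leukocyte, skeletal muscle, photoreceptor, neuron and myelin and glia lists had 0 calls in limma, with 3, 1, 1, 5, 4 and 3 probe sets at an unadjusted p under 0.05. Neuronal probe sets were above 0 at 19 of 22 and below 0 at 3 (60.8% of all probe sets), with a median of 0.14 and none called. Their list median was -0.35 in BRAF replicate 1, against -0.02 and 0.00 in the other BRAF arrays. Without BRAF replicate 1 and p53 replicate 3, 6 of the 22 were below 0 (53.1% of all probe sets) and the median was 0.10.

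Digestive enzymes of the exocrine pancreas differed widely between arrays of 1 genotype. All 17 probe sets of 15 genes had a main difference below 0 (60.8% of all probe sets), with a median of -0.72, yet 0 were called in limma and 3 passed at an unadjusted p under 0.05. Without BRAF replicate 1 and p53 replicate 3 the median was -0.49 and 1 was called. The median was -1.93 in BRAF carriers and 0.44 without the transgene. The list median was -1.42, -1.25 and -0.98 in BRAF;p53 embryos and -0.14, 1.30 and 1.26 in BRAF embryos. It was 0.66, 1.49 and -1.86 in p53 embryos and 0.45, -2.04 and 0.27 in Tu embryos. p53 replicate 3, Tu replicate 2 and BRAF replicate 1 were the low arrays of their genotypes. The intestine list moved likewise, with its lowest p53, Tu and BRAF arrays at -0.31, -0.37 and -0.09 in the same replicates. The main effect had 429 calls over all probe sets without p53 replicate 3, 399 without Tu replicate 2 and 492 without BRAF replicate 1.

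The number of calls depended on single arrays. Leaving out 1 array at a time gave between 245 and 561 main calls. It was 245, 248 and 255 without BRAF;p53 replicates 1, 2 and 3, and 265 and 252 without Tu replicates 1 and 3. Of the 461 probe sets, 196 stayed called in each of the 12 such fits. BRAF replicate 1 correlated with the other BRAF arrays at 0.564 and 0.409, and p53 replicate 3 with the other p53 arrays at 0.467 and 0.477, against 0.671 to 0.84 within BRAF;p53 and Tu. Without both arrays 617 were called, 376 of the 461 among them. With p53 replicates 1 and 2 averaged as 1 sample 344 were called, 332 of the 461 among them. All 24 genes with the largest rises and falls stayed called without the 2 arrays. With p53 replicates 1 and 2 averaged, 11 of the 12 rises and 11 of the 12 falls were called, and the additive fit called 7 rises and 9 falls.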

How the data were processed

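Total RNA of whole embryos was extracted with Trizol and hybridised to 12 Affymetrix zebrafish arrays, 3 per genotype, per the labels. The submitters' processing notes name GCRMA, with no version, as the tool behind the deposited log2 values. On the linear scale the median over the 12 arrays was 1 (tolerance 0.0001) for 13937 of 15617 probe sets, so these were centred there. The median was below 1 for 1680 and above 1 for 0. Brightness and signal over background are unknown. The number of arrays limits the precision.

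The 115 Affymetrix controls were left out, and 15502 probe sets were tested without a filter on dim values. Platform annotation gave 1 symbol to 10795, several to 135 and none to 4572. Genotype means were fitted and moderated with lmFit and eBayes of limma 3.58.1 under R 4.3.3, with contrasts for the main p53 difference, its 2 components and their difference, each adjusted by Benjamini-Hochberg at 0.05, two-sided. The fit was also run on simulated data with independent normal noise and the same shift in both BRAF states. That simulation held no outlying arrays, shared sources or differences between the states, so it does not test the calls against these. Python 3.11.15 made the tables (pandas 2.3.3, numpy 2.4.6) and the figures (matplotlib 3.10.9).

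Named genes were the 12 largest rises and 12 largest falls with 1 symbol, a call and no overlap between arrays in each BRAF state. Added were the 5 largest differences between states, up to 4 called members per list and 18 genes fixed by name. Results that need 1 further part of this rule are not reported here, though some genes of the closing section were named by it. Genes named after seeing values are marked. The comparison, the 26 lists and these genes were chosen with earlier results of these data known, and 5 lists were added after seeing values. Deviations of same-numbered arrays correlated from -0.323 to 0.363, over 0.1 in 7 of 18 pairs. Of the 12 arrays 6 correlated best with an array of their own number. Whether replicate numbers pair the arrays is thus not settled, and no block was used in the main fit.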

Additional observations from a re-analysis of the deposited data

Results flagged for a closer look

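The p53 difference itself differed between the BRAF states, past the threshold in limma, in 22 named genes. Over all probe sets 3.21% passed. Some of the 22 were named for this difference or after their values were seen, which raises the count. The value given is the difference in BRAF carriers minus that without the transgene, on the log2 scale. It was positive in ube2q2 (7.32), slc25a14 (5.12 and 5.22 on 2 of its probe sets), copb2 (3.49), lgals3b (3.23), anxa6 (3.02) and zbtb16a (3.02). It was also positive in cryaa (1.92), bphl (1.51), rtkn2 (1.32), usp7 (1.31), vapb (1.27), ddit4 (0.89), hapln1a (0.79) and rps6ka3a (0.69). It was negative in top1a (-5.51), cp (-5.23), pbldp (-2.81), si:dkey-22l11.6 (-1.79), pes (-0.96), nsdhl (-0.91), plk3 (-0.68) and mvk (-0.57). In ube2q2, copb2 and lgals3b the BRAF embryos stood apart, and in slc25a14, anxa6 and top1a the Tu embryos.

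Single arrays stood far from the other 5 of their p53 state in 10 of 180 sets of 6 arrays screened. Chance flags about 1 in 20, which is close to this share, so the arrays below are listed as descriptions. Each set also joins genotypes with and without the transgene, for which the 1 in 20 need not hold. p53 replicate 3 did so in casp2 (-1.24), dlat (-0.49), copb2 (-0.41), mitfa (-0.39), anxa1a (0.64) and rev3l (0.67). BRAF replicate 1 did so in zgc:66479 (-2.71) and mtg2 (0.55), BRAF replicate 2 in mfap4.5 (-0.79) and Tu replicate 1 in bbc3 (-0.32).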

How the results depend on the processing

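Counts of calls over all probe sets depended on the setting. The main effect gave 461 calls, and 124 with the additive fit, 245 with probe sets averaged per gene symbol and 85 with an absolute change of at least 1. p53 against Tu gave 284, and 156 with samples 1a and 1b averaged, 146 per gene, 688 without BRAF replicate 1 and p53 replicate 3, 105 with only those 6 arrays fitted and 121 with a change of at least 1. BRAF;p53 against BRAF gave 698, and 434 per gene, 1162 without the 2 arrays and 220 with a change of at least 1. The difference between the states gave 497, and 312 with 1a and 1b averaged, 312 per gene, 1469 without the 2 arrays and 317 with a change of at least 1. The lower counts at a change of at least 1 follow from the added condition. The fit per gene averaged probe sets and left out those without exactly 1 symbol, and 301 of the 461 main calls had 1 symbol. The cause of the change per gene and under the other settings was not tested. Leaving out 1 array gave 245 to 561, 161 to 466, 302 to 982 and 284 to 787 in the same order of contrasts. Without p53 replicate 3 the difference between the states had 787 calls, and without BRAF replicate 1 p53 against Tu had 466. With a replicate block the 4 counts were 525, 316, 703 and 481, but whether the numbers pair the samples is not settled.

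Of 103 named results under alternatives other than leaving out 1 array, 803 of 925 values kept direction and side of the threshold, 111 lost the call, 1 gained it and 10 changed sign. Many of the named genes were chosen for a call or a large change, which favours a kept direction. The sign changes were in genes near 0. pmaip1 was 0.13 and tp53inp1 0.047 without the 2 arrays. bbc3 was 0.0016 with quantile normalization, 0.011 with centred medians and 0.027 without the 2 arrays. mitfa was 0.066, 0.022 and 0.15 under the same 3 settings in that order, and spry4 was 0.11 and 0.021 under the first 2 of them. Leaving out 1 array gave 1236 values, of which 961 kept direction and side of the threshold, 254 lost the call, 0 gained it and 21 changed sign. In those fits the difference ran from -0.086 to 0.053 for mdm2, -0.18 to 0.057 for pmaip1 and -0.068 to 0.024 for bbc3. It ran from -0.094 to 0.037 for tp53inp1, -0.060 to 0.077 for mitfa and -0.028 to 0.037 for spry4. Signal over background is unknown, so dim probe sets could not be set apart.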
